A study of Petunia x hybrida with 48 samples.

Results

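Axillary buds from node 6 were compared with axillary buds from node 3 of petunia (Petunia x hybrida, the inbred laboratory line V26) in the first of the hydroponic experiments. The comparison holds 12 of the 48 libraries of the series, chosen from the labels as all bud 6 and bud 3 libraries of experiment 1. It holds 3 libraries of bud 6 in low P, 3 of bud 6 in high P, 3 of bud 3 in low P and 3 of bud 3 in high P. All plants of experiment 1 were raised in high P (250 µM phosphate) and were moved to low P (5 µM phosphate) or to fresh high P 24 h before harvest. The low P groups therefore had a day without ample phosphate, not a history of starvation. Each library came from a pool of buds cut with a scalpel from several plants, and buds 6 and 3 could come from the same plants, so the replicates describe the spread between pools. Buds 2 and 7 of the same experiment, and the same comparison in experiment 3, are given only beside these values. Plants of experiment 3 were raised in low P and were moved to high P or to fresh low P, again 24 h before harvest, with 3 libraries of each bud in each medium.

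An axillary bud forms at the base of each leaf and either grows into a branch or stays small. Its growth depends on cell division in the bud meristem, on sugar arriving from the plant and on hormones: auxin and strigolactone made elsewhere restrain buds, cytokinin releases them, and abscisic acid (ABA) is known for holding buds and seeds dormant. Low-numbered nodes lie near the base of the petunia stem and high-numbered nodes near the tip, and the study compared them because basal and apical buds branch differently. Resting buds of other species share a set of transcripts linked with carbon shortage, ABA and growth arrest, and the study matched petunia homologs to that set.

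Transcript levels are given as normalized counts, in which the reads of each gene were scaled so that libraries can be compared. The low values were not all whole multiples of 1 read, whose worth was estimated from them as 0.738 to 1.28 normalized counts in the 12 libraries. The libraries summed to between 41341321 and 44920795 normalized counts. Differences between buds are on the log2(normalized count + 1) scale, bud 6 minus bud 3, with their standard error (SE) and the limma p-value adjusted over all genes. This scale understates the change of genes with low counts. The first principal component, with 82.5% of the variance, separated all 6 bud 6 libraries from all 6 bud 3 libraries, and the second, with 4.3%, set the replicate 1 libraries of high P apart in both buds. Without these 2 libraries 7633 genes were called, near the count given below for all 12. Of 34301 genes in the table, the 22227 whose mean over the 12 libraries reached 10 were tested. The files do not name genes, and descriptions were held for 3265 of the tested genes.

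The buds differed across much of the transcriptome. With limma, 7566 of 22227 genes were called at an adjusted p below 0.05 and more than a 2-fold change (34.0%). Of these, 3079 were higher in bud 6 (13.9% of genes tested) and 4487 were lower in bud 6 (20.2%). Quantile normalization called a similar number, 7741, but moved the median of all genes up by 0.141, and 4051 of its calls were higher and 3690 lower, so the excess of lower calls depends on the scaling. The lower calls were also larger in size. More than 16-fold differences were found for 63 of the higher and 553 of the lower genes, and the median size was 1.48 for higher and 2.01 for lower calls on the log2 scale. The bud 6 and bud 3 libraries did not overlap for 2942 of the higher and 3991 of the lower calls. Bud 6 lay wholly above bud 3 in 29.5% and wholly below in 29.6% of all genes tested. In bulk tissue, a lower share of a cell type and less RNA of a gene per cell cannot be told apart.

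Described genes were grouped into 27 lists by words in their descriptions. Most descriptions come from the study's tables of genes that differed between buds in these libraries, so a list's count is not independent evidence of its direction. Of the 3265 described genes tested, 2572 were called, 1153 higher and 1419 lower in bud 6. This is a far larger share than the 34.0% called among all genes tested. A list's count is therefore read beside these counts of described genes, and a count above the shares of all genes does not by itself set a list apart. The median log2 difference of all genes tested was -0.05.

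**Figure D1:**
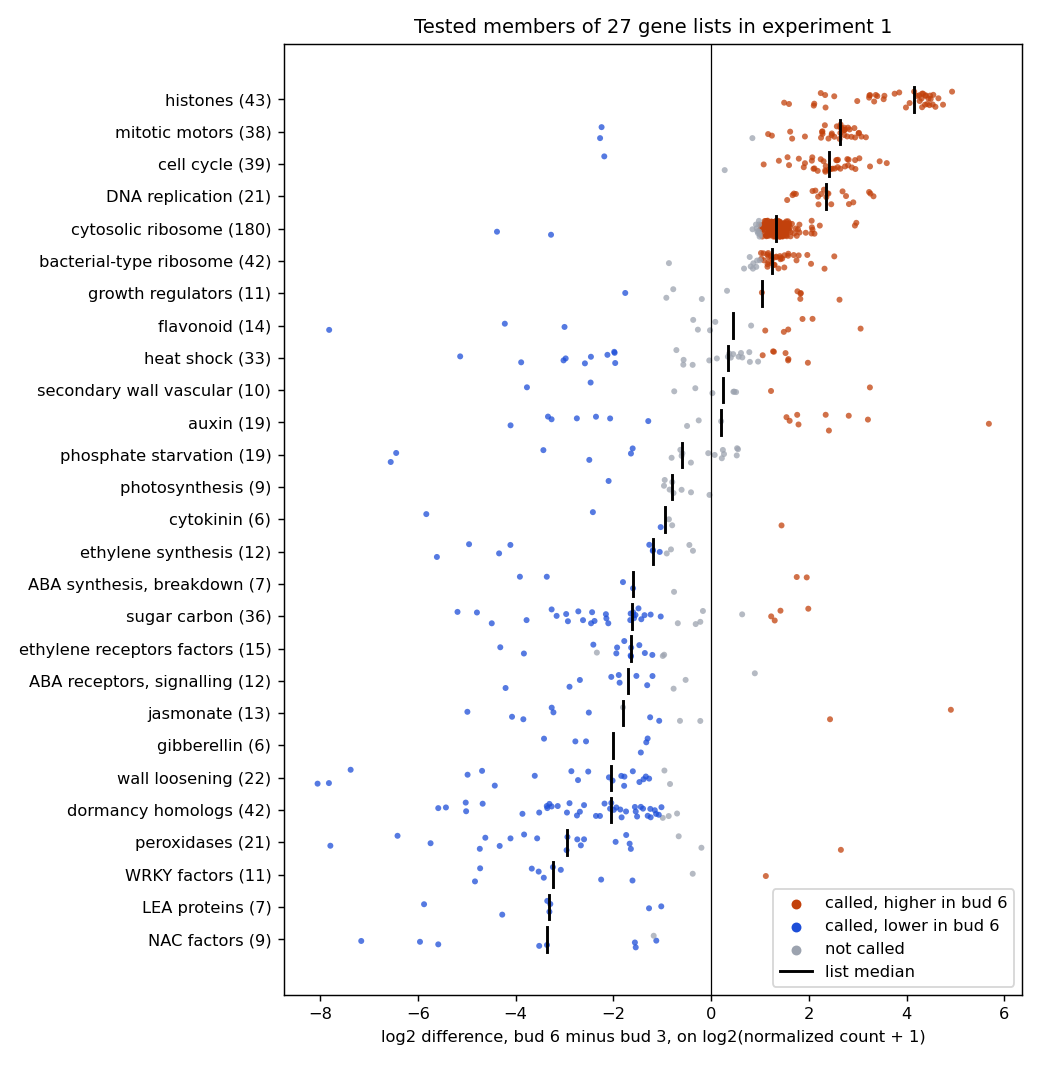
Each point is a tested member of a gene list, placed by its log2 difference between bud 6 and bud 3 (x axis, on log2(normalized count + 1)), with lists as rows, the number of tested members in brackets and the list median as a black bar. Histones sit farthest to the right, with a median of 4.15, and NAC factors farthest to the left, with a median of -3.36.

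The machinery of DNA replication and division formed the most uniform block of genes higher in bud 6. All 43 histone genes rose, with a median of 4.15 and a range of 1.49 to 4.93. Their summed normalized counts were 477640 to 738041 in bud 6 and 40715 to 70248 in bud 3. Histones package newly made DNA, and most are transcribed while a cell copies its genome. Histone H2A 2 (Peaxi162Scf01039g00231.1) had 10634, 13284 and 12188 in low P and 12299.8, 18090.3 and 15739 in high P in bud 6, against 274, 648 and 774 in low P and 461, 406 and 921 in high P in bud 3. The lowest bud 6 library lay more than 10-fold above the highest bud 3 library, and the difference was 4.65 ± 0.25 (SE) with a limma adjusted p of 9.7e-09. The largest difference of the list, 4.93 ± 0.24 (SE), belonged to a gene described only as a histone superfamily protein (Peaxi162Scf01018g00016.1), with means of 7465 in bud 6 and 258 in bud 3. Many histone genes are near-identical copies, so reads may have been split between them and single members are less certain than the sum.

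All 21 DNA replication genes were also higher, by 1.56 to 3.32. The sliding clamp of replication, proliferating cell nuclear antigen 2 (PCNA2, Peaxi162Scf01058g00150.1), had 13928, 16720.2 and 14810.2 in low P and 15079, 20614 and 17246 in high P in bud 6, against 1266, 2920.5 and 2839.9 in low P and 2501, 1421 and 2760.1 in high P in bud 3. The buds did not overlap, although bud 3 itself spread by more than 2-fold between pools, and the difference was 2.91 ± 0.22 (SE). Cell division control protein 45, a part of the replicative helicase (Peaxi162Scf00238g00032.1), differed by 3.32 ± 0.25 (SE), and DNA topoisomerase 2 (Peaxi162Scf00744g00349.1), which untangles copied chromosomes, by 3.26 ± 0.16 (SE).

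Of 39 cell cycle genes, 37 were higher, 1 was lower and 1 was not called. CYCLIN D3 (CYCD3, Peaxi162Scf00003g02442.1), which couples division to hormone and sugar signals, had 1508, 1337 and 1452 in low P and 1293, 1672 and 1779 in high P in bud 6, against 136, 180.2 and 161 in low P and 101, 99.3 and 162 in high P in bud 3, a difference of 3.45 ± 0.15 (SE) (limma adjusted p = 2.9e-09). The mitotic kinases CDKB1 (Peaxi162Scf00374g00620.1) and CDKB2 (Peaxi162Scf00385g00520.1) differed by 2.59 ± 0.09 (SE) and 2.33 ± 0.13 (SE). CDKB1 averaged 4199.98 ± 576 in bud 6 and 692 ± 72.3 in bud 3 (SD, n = 6 each). The most abundant member was cell division cycle 20.1 (Peaxi162Scf00815g00251.1), an activator of the anaphase-promoting complex, at 23557 in bud 6 and 3987 in bud 3. The exception was cyclin p4 (Peaxi162Scf01305g00027.1), a P-type cyclin, which was lower at 62.03 to 176 (median 129.9) in bud 6, against 388 to 839 (median 616) in bud 3. Among 38 microtubule motors and associated proteins, 35 were higher and 2 lower. The spindle and cell plate protein 65-kDa microtubule-associated protein 5 (Peaxi162Scf00220g00233.1) rose by 3.17 ± 0.11 (SE), while one motor protein (Peaxi162Scf00597g00827.1) was lower with a difference of -2.27 ± 0.17 (SE).

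**Figure D2:**
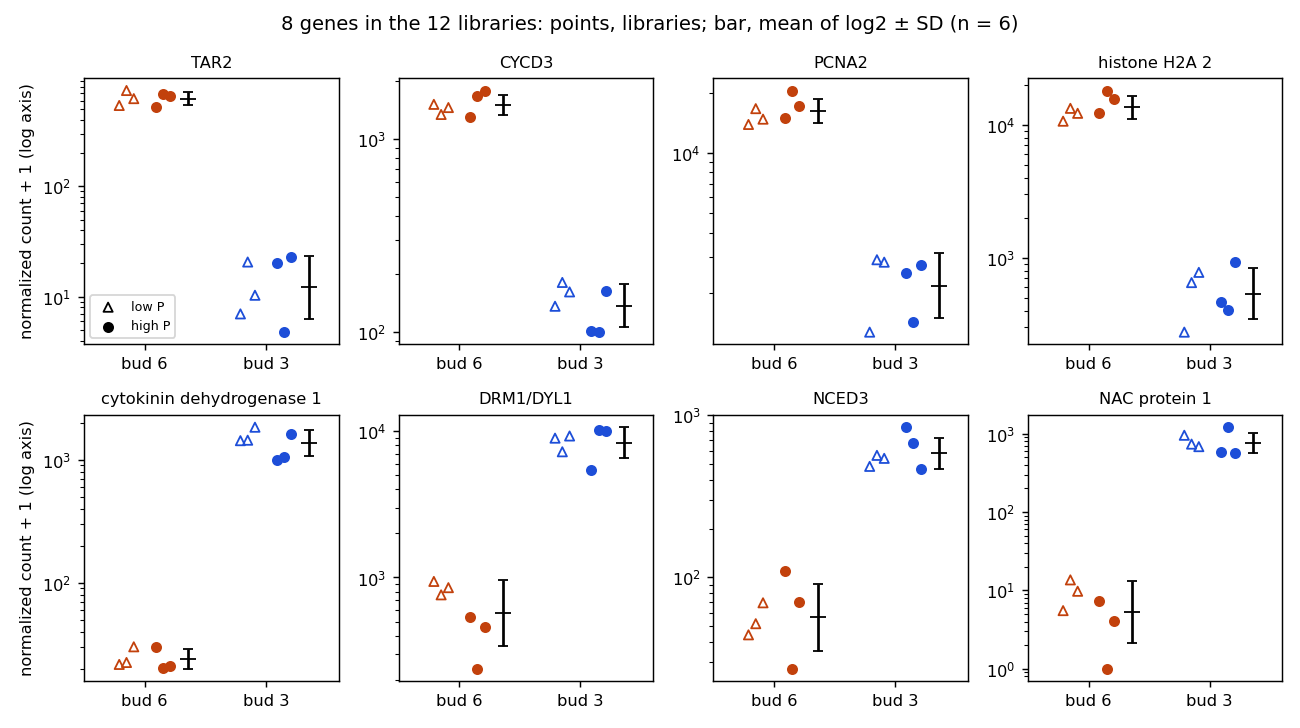
Normalized counts plus 1 (log axis) of 8 genes in the 12 libraries, with bud 6 on the left and bud 3 on the right of each panel. Open triangles are low P libraries, filled circles high P libraries, and bars the mean of the log2 values ± SD (n = 6), and in every panel the 2 buds do not overlap.

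Ribosomal proteins shifted the same way by smaller amounts, and growth regulators did so only in part. Of 11 growth regulator genes, 6 were higher, 1 was lower and 4 were not called. With no fold limit 7 were higher and 3 lower, and TRN2 (-0.92) was among the lower ones. Growth-regulating factor 5 (Peaxi162Scf00724g00713.1), a promoter of leaf cell proliferation, had 1277 to 1936 (median 1426) in bud 6, against 199.99 to 329 (median 228) in bud 3, a difference of 2.63 ± 0.14 (SE). Factors 1 and 3 and their partner GRF1-INTERACTING FACTOR 1 were higher as well, by 1.83, 1.82 and 1.04. The call of the last was lost with array weights (0.97) and without both replicate 1 libraries of high P (0.94). Leaving out high P bud 3 replicate 1 (0.88) or low P bud 3 replicate 3 (0.996) lost it too. Both PROTODERMAL FACTOR 1 genes, markers of the outermost cell layer of the meristem, were higher, by 1.83 and 1.77. BEL1-like homeodomain 1 (Peaxi162Scf00910g00017.1) was lower, at 1010.1 to 1390.4 (median 1142) in bud 6 and 3259.9 to 4474 (median 4043) in bud 3. The knox-like homeodomain protein 1, which marks meristem cells, averaged 398 in bud 6 and 314 in bud 3 and was not called.

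Of 180 cytosolic ribosomal protein genes, 168 were higher, 2 were lower and 10 were not called, and 3 more fell under the filter. Their median difference was 1.33, and their sum was 2910010 to 3645200 normalized counts in bud 6, against 1068880 to 1382050 in bud 3. Most members lay close together, as for the acidic stalk protein P0 (Peaxi162Scf01313g00116.1) with 68780.5 to 88150.2 (median 73294) in bud 6 and 23336 to 31752 (median 30402) in bud 3. The 2 lower members stood well apart from the rest. The 60S protein L6 gene Peaxi162Scf00751g00221.1 had 107, 128 and 67.6 in low P and 87.96, 44.7 and 68.3 in high P in bud 6, against 2028, 1628 and 1477 in low P and 1324, 2083 and 1651 in high P in bud 3, a difference of -4.38 ± 0.21 (SE). The 40S protein S3a gene Peaxi162Scf00328g00827.1 had 39.02 to 82.01 (median 67.7) in bud 6, against 399 to 758 (median 665) in bud 3, a difference of -3.28 ± 0.19 (SE). Ribosomal proteins of the bacterial type, which serve plastids and mitochondria, followed with 33 of 42 higher, none lower and a median of 1.25.

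Auxin genes moved in both directions and included the largest increase among tested genes with a described function. TRYPTOPHAN AMINOTRANSFERASE RELATED 2 (TAR2, Peaxi162Scf00689g00027.1), an enzyme of auxin synthesis, had 539.97, 738 and 623 in low P and 519.7, 691 and 658 in high P in bud 6, against 5.98, 19.6 and 9.31 in low P and 19.04, 3.77 and 21.7 in high P in bud 3. The difference of 5.68 ± 0.37 (SE) (limma adjusted p = 3.1e-08) was nearly the same in low P, 5.79, and in high P, 5.58. Of 19 auxin genes, 9 were higher and 7 lower, with a median of 0.20. Transport and response members were among the higher ones. Auxin transporter-like protein 2 (Peaxi162Scf00042g02726.1), an uptake carrier, had 1290.4 to 1724 (median 1475) in bud 6 and 92.00 to 227 (median 184) in bud 3. The efflux carrier PIN6 (Peaxi162Scf00033g00711.1) had 152 to 235 (median 176) in bud 6 and 18.00 to 59.4 (median 34.2) in bud 3, and AUXIN RESPONSE FACTOR 19 (ARF19, Peaxi162Scf00287g00193.1), a transcriptional activator, 5001 to 6891 (median 5903) in bud 6 and 776 to 1628 (median 1193) in bud 3. The lower members included enzymes that bind auxin to amino acids. GH3.5 (Peaxi162Scf01306g00016.1) had 4325 to 7143 (median 5473) in bud 6, against 18061 to 33034 (median 29136) in bud 3, and another GH3 gene (Peaxi162Scf00007g01617.1) was lower with a difference of -4.10 ± 0.29 (SE). A further GH3 gene (Peaxi162Scf01258g00119.1) was higher by 1.54, so the GH3 family did not move as a group. AUXIN RESPONSE FACTOR 11 (Peaxi162Scf00747g00018.1), of a class that often represses, was lower with a difference of -1.29 ± 0.16 (SE), a call lost under quantile normalization (-0.87).

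Cytokinin genes were few, and their clearest member broke the hormone down. Cytokinin dehydrogenase 1 (Peaxi162Scf01296g00111.1), which degrades cytokinin, had 20.7, 21.5 and 29.2 in low P and 29.1, 19.3 and 19.96 in high P in bud 6, against 1426, 1439 and 1834 in low P and 987, 1055 and 1616 in high P in bud 3. The difference of -5.83 ± 0.16 (SE) was over 30-fold, and no library of bud 6 came within 10-fold of bud 3. A pair of relatives behaved less clearly. CKX5 (Peaxi162Scf00189g00922.1) was called higher by 1.44 ± 0.45 (SE) with a limma adjusted p of 0.011, but had 215, 176 and 218 in low P and 537, 130.4 and 460.5 in high P in bud 6, against 31.8, 39.95 and 72.5 in low P and 318, 74.6 and 288 in high P in bud 3, so the buds overlapped. CKX3 (Peaxi162Scf00498g00427.1) was called lower with a difference of -1.03 ± 0.35 (SE), also with overlap. That call was lost under quantile normalization (-0.63) and without any one of 6 of the libraries, when the difference was -0.97 without high P bud 3 replicate 1, -0.91 without low P bud 3 replicate 1, -0.93 without low P bud 3 replicate 3, -0.88 without high P bud 6 replicate 2, -0.94 without low P bud 6 replicate 2 and -0.91 without low P bud 6 replicate 3. Of the 6 genes tested, 1 was higher and 3 lower.

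All 6 gibberellin genes were lower in bud 6, with differences of -3.42 to -1.30. Gibberellin 2-oxidase (Peaxi162Scf00111g00923.1), which inactivates the hormone, had 77.3 to 224 (median 118) in bud 6, against 984 to 1622 (median 1366) in bud 3. A second 2-oxidase was lower by the smallest amount, -1.30, a call lost under quantile normalization (-0.54), where 5 of the 6 genes were lower. The other 4 members match GID1B or GID1C, gibberellin receptors of Arabidopsis, and of these the GID1B gene Peaxi162Scf00006g00389.1 had 327 to 533 (median 463) in bud 6 and 1947 to 3394 (median 2522) in bud 3. Enzymes that remove the hormone and genes matched to its receptors were thus lower side by side.

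ABA genes were mostly lower in bud 6, including some for making the hormone and most of those for responding to it. Other synthesis genes that the study examined, such as zeaxanthin epoxidase, were not among the words that made the list. NCED3 (Peaxi162Scf00111g00077.1), the rate-limiting enzyme of ABA synthesis, had 43.1, 50.6 and 68.5 in low P and 109, 26.2 and 69.7 in high P in bud 6, against 483, 565 and 542 in low P and 844, 671 and 466 in high P in bud 3. The buds did not overlap and differed by -3.36 ± 0.28 (SE) (limma adjusted p = 2.7e-07). ABA DEFICIENT 4 (Peaxi162Scf00501g00318.1), which acts earlier in the same pathway, was lower with a difference of -1.60 ± 0.17 (SE). The ABA 8'-hydroxylases, which break ABA down, split by type. Both genes of type 1 were lower, with differences of -3.91 ± 0.40 (SE) for Peaxi162Scf00053g00315.1 and -1.80 ± 0.31 (SE) for Peaxi162Scf00045g00725.1, the second with overlapping libraries. Both genes of type 4 were higher, Peaxi162Scf00016g01820.1 at 145 to 254 (median 209) in bud 6 and 16.5 to 145 (median 49.03) in bud 3, and Peaxi162Scf00016g01819.1 at 51.2 to 86.1 (median 71.96) in bud 6 and 10.2 to 49.4 (median 15.4) in bud 3. Of 7 genes of synthesis and breakdown, 2 were higher and 4 lower.

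Of 12 ABA receptor and signalling genes, 9 were lower and none higher, with a median of -1.70. The ABA-responsive transcription factor ABF3 (Peaxi162Scf00003g02333.1) had 649, 650.3 and 725 in low P and 766, 490.05 and 461 in high P in bud 6, against 2542, 2599 and 2150.2 in low P and 2569, 3123 and 2302 in high P in bud 3, a difference of -2.04 ± 0.13 (SE). A second factor of that family (Peaxi162Scf00252g00228.1) differed by -1.89 ± 0.18 (SE). Homeobox 7 (Peaxi162Scf00074g00025.1), an ABA-induced transcription factor in Arabidopsis, had 0 to 7.81 (median 2.07) in bud 6 and 42.9 to 81.2 (median 55.9) in bud 3. AFP3 (Peaxi162Scf01312g00016.1), whose Arabidopsis relatives dampen ABA signalling, was lower too with a difference of -2.90 ± 0.27 (SE). The receptor PYR1 gene Peaxi162Scf00009g00132.1 averaged 700.4 in bud 6 and 378 in bud 3, a difference of 0.89 that did not reach 2-fold. It was called higher under quantile normalization (1.03), without low P bud 3 replicate 2 (1.01) and without low P bud 6 replicate 1 (1.04).

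The bud dormancy homologs were listed by the study because they were higher in bud 2, the other basal bud, in at least one of its experiments, and homologs that were not were left out of its list. Their direction was therefore largely set by that choice, and the count is a description. Of 42 tested, 39 were lower, none was higher and 3 were not called, with a median of -2.06 and summed normalized counts of 21625 to 32769 in bud 6, against 97209 to 140220 in bud 3. DRM1/DYL1 (Peaxi162Scf01100g00009.1), a classic marker of resting buds, had 939, 759.97 and 851 in low P and 533, 237 and 455 in high P in bud 6, against 8943, 7218 and 9253 in low P and 5421, 10194 and 10068 in high P in bud 3, a difference of -3.86 ± 0.25 (SE). ASN1/DIN6 (Peaxi162Scf00540g00013.1), an asparagine synthetase induced in darkness and by lack of sugar, had 1363, 569 and 749.5 in low P and 354, 95.7 and 234 in high P in bud 6, against 5656, 3204 and 6849 in low P and 1547, 2750.4 and 7006 in high P in bud 3. Its pools spread more widely than those of DRM1 without overlapping, and the difference was -3.26 ± 0.44 (SE). EXL2 (Peaxi162Scf01060g00008.1), of a family linked with low carbon in Arabidopsis, was lower with a difference of -2.28 ± 0.15 (SE). The abundant dormancy/auxin associated family member Peaxi162Scf00037g01327.1 averaged 5317 in bud 6 and 23994 in bud 3.

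Transcription factor families linked with stress and senescence were lower as well. Of 9 NAC genes tested, 8 were lower and none higher, with a median of -3.36, and under quantile normalization 5 were lower, with a median of -2.48. NAC domain containing protein 1 (Peaxi162Scf00232g01126.1) had 4.52, 12.6 and 8.76 in low P and 6.34, 0 and 3.13 in high P in bud 6, against 951, 733 and 680.4 in low P and 583, 1205 and 567 in high P in bud 3, a difference of -7.16 ± 0.47 (SE). NAP (Peaxi162Scf00222g00624.1), which promotes leaf senescence in Arabidopsis, was at 0 to 4.39 in bud 6, about the level of a few reads, and at 57.6 to 410.1 (median 96.4) in bud 3. NAC072 (Peaxi162Scf00998g00126.1) was called lower with a difference of -3.52 ± 1.15 (SE), but ran from 0 to 136 in bud 6 and from 13.8 to 811 in bud 3, and its call was lost under quantile normalization (-2.48). Of 11 WRKY genes, 9 were lower and 1 was higher. WRKY33 (Peaxi162Scf00055g01910.1), a regulator of defence, had 164 to 846 (median 349) in bud 6 and 1839.8 to 4570.1 (median 2862) in bud 3, while WRKY13 (Peaxi162Scf00853g00029.1), known for stem lignification in Arabidopsis, was higher at 122 to 235 (median 169) in bud 6 and 70.5 to 88.9 (median 80.5) in bud 3. WRKY 18 (Peaxi162Scf00332g00524.1) had 20.7, 52.2 and 34.4 in low P and 57.1, 12.8 and 2.098 in high P in bud 6, against 461, 278 and 451 in low P and 4956, 357 and 337 in high P in bud 3, so that replicate 1 of high P was more than 10-fold above the other high P pools of bud 3. All 7 late embryogenesis abundant proteins tested, which protect cells that lose water, were lower, with a median of -3.31. Within treatments 6 were lower in high P and 5 in low P. The smallest difference, -1.02 for Peaxi162Scf00798g00322.1, lost its call under quantile normalization (0.07), with array weights (-0.80) and at a pseudocount of 5 (-0.79). That call was also lost without any one of several single libraries.

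Ethylene genes were lower in bud 6 where they were called. Of 12 synthesis genes, 8 were lower and none higher. ACC synthase 9 (Peaxi162Scf00381g00219.1), of the family that sets the pace of ethylene production, had 33.3, 40.1 and 38.3 in low P and 112, 25.6 and 44.7 in high P in bud 6, against 616, 632 and 1035 in low P and 712, 816 and 849 in high P in bud 3. The last step is made by ACC oxidases, and ACC oxidase 1 (Peaxi162Scf00047g01927.1) had 96.7 to 612 (median 462) in bud 6 and 5165 to 10099 (median 6204) in bud 3. Of 15 receptors and response factors, 12 were lower and none higher. Ethylene-responsive transcription factor 1B (Peaxi162Scf01560g00009.1) had 6.52 to 13.3 (median 12.1) in bud 6 and 179 to 383 (median 215) in bud 3, and EBF2 (Peaxi162Scf00046g00718.1), which limits the ethylene signal, was lower with a difference of -1.94 ± 0.18 (SE).

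Jasmonate genes were mostly lower in bud 6, but genes described as allene oxide synthase split in direction. The allene oxide synthase gene Peaxi162Scf00016g01146.1, which makes a jasmonate precursor, had 75.3, 85.8 and 87.5 in low P and 82.02, 87.9 and 63.6 in high P in bud 6, against 4.52, 1.11 and 1.07 in low P and 1.05, 2.57 and 1.19 in high P in bud 3, near the level of a few reads. A second gene with this description (Peaxi162Scf00684g00511.1) was listed at 0 in all 6 bud 6 libraries, against 9.603, 4.79 and 36.3 in low P and 200.3, 15.1 and 137 in high P in bud 3. Genes with the same description thus moved in opposite directions. OPR3 (Peaxi162Scf00088g01321.1), a later enzyme of the pathway, was higher, at 5252 to 6539.9 (median 5609.99) in bud 6 and 791 to 1339 (median 1066) in bud 3. The lipoxygenase 2 genes that start the pathway were lower, with differences of -4.07 ± 0.33 (SE) for Peaxi162Scf00895g00019.1 and -3.84 ± 0.36 (SE) for Peaxi162Scf00895g00113.1. Of 13 genes tested, 2 were higher and 8 lower.

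Genes of sugar transport and use were mostly lower in bud 6, with a few exceptions in signalling and starch synthesis. Of 36 tested, 27 were lower and 4 higher, with a median of -1.62. Sugar transport protein 13 (Peaxi162Scf00437g00320.1), a hexose importer, had 91.2, 123 and 81.5 in low P and 70.1, 58.02 and 83.8 in high P in bud 6, against 3524, 2156 and 4117 in low P and 5103, 2421 and 2044 in high P in bud 3, a difference of -5.19 ± 0.23 (SE). A pair of alpha amylases, which break down starch, was lower with differences of -4.79 ± 0.50 (SE) for Peaxi162Scf00252g00081.1 and -4.49 ± 0.39 (SE) for Peaxi162Scf00252g00712.1. Sucrose synthase 4 (Peaxi162Scf00928g00232.1), which splits sucrose, averaged 534 ± 173 in bud 6 and 3282 ± 1088 in bud 3 (SD, n = 6 each). All 4 genes described as insoluble beta-fructofuranosidases, the cell wall invertases, were lower, with differences of -2.72 to -1.43. The 4 higher genes were trehalose-6-phosphate synthase 1 (Peaxi162Scf00022g02413.1), which makes a signal of sucrose status, hexokinase 2 (Peaxi162Scf00944g00032.1), starch synthase 1 (Peaxi162Scf00740g00124.1) and an acid invertase (Peaxi162Scf00002g00818.1). TPS1 had 673 to 821 (median 754) in bud 6 and 226 to 306 (median 285) in bud 3, a narrow spread with a difference of 1.42 ± 0.08 (SE).

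The largest changes were far bigger among genes that were lower than among those that were higher. Genes described as an unknown protein or with the word superfamily were left out of both rankings given here. Of the 10 largest increases among the other abundant described genes without overlap, 7 were histones H2A or H2B. The others were TAR2, an ABC-2 type transporter (Peaxi162Scf00263g00086.1) and the aluminum-activated malate transporter 1 (Peaxi162Scf00624g00918.1). The ABC-2 type transporter, of a family that exports molecules from cells, had 101 to 179 (median 119) in bud 6 and 3.16 to 9.82 (median 5.803) in bud 3, and the malate transporter, an anion channel, 120.1 to 204 (median 139.9) in bud 6 and 2.96 to 24.1 (median 6.43) in bud 3. The largest decreases belonged to enzymes of mixed roles. Ectonucleoside triphosphate diphosphohydrolase 5 (Peaxi162Scf00378g00010.1), of the apyrases, which take phosphate off nucleotides, had 3.48, 14.8 and 7.86 in low P and 0, 0 and 5.29 in high P in bud 6, against 2655, 3297 and 5929 in low P and 9144, 5072 and 7526 in high P in bud 3, a difference of -10.33 ± 0.64 (SE). Terpene synthase 21 (Peaxi162Scf00357g00012.1) had 0 to 9.85 (median 3.31) in bud 6 and 427 to 6095 (median 2489) in bud 3, and a eukaryotic aspartyl protease (Peaxi162Scf00850g00009.1) 0 to 20.5 (median 4.88) in bud 6 and 1173 to 4468 (median 2103) in bud 3. The glucan endo-1,3-beta-glucosidase Peaxi162Scf00032g00106.1, which cuts callose and related glucans, averaged 49.6 in bud 6 and 14451 in bud 3. H6H (Peaxi162Scf00234g00412.1), described as hyoscyamine 6-dioxygenase, differed by -7.62 ± 0.50 (SE). Each of these 5 genes was at no more than 98.1 normalized counts in every bud 6 library.

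Wall-loosening enzymes went the opposite way to cell division. None of 22 xyloglucan endotransglucosylase/hydrolases (XTH) and expansins tested was higher, 20 were lower and the median was -2.05. Expansin B2 (Peaxi162Scf00271g00834.1) had 6.705, 24.3 and 22.5 in low P and 15.6, 10.2 and 29.5 in high P in bud 6, against 1148, 4157 and 5827 in low P and 5386, 4131 and 5601 in high P in bud 3. XTH32 (Peaxi162Scf00892g00009.1) had 7.83 to 52.98 (median 20.1) in bud 6 and 3024 to 7768 (median 6946) in bud 3. The most abundant member, XTH5 (Peaxi162Scf00037g01026.1), had 13662 to 22125 (median 18754) in bud 6 and 18347 to 54413 (median 34033) in bud 3 and was called lower, with a difference of -1.01, when low P bud 3 replicate 1 was left out. Of 21 peroxidases, which can stiffen walls, 18 were lower and 1 was higher. PRX72 (Peaxi162Scf00418g01014.1) had 10.1, 11.8 and 1.95 in low P and 3.78, 14.6 and 7.35 in high P in bud 6, against 1871, 848 and 3308 in low P and 2542, 2299 and 1003 in high P in bud 3, and PER64 (Peaxi162Scf00064g00738.1), which builds the root endodermal barrier in Arabidopsis, was the higher one at 90.7 to 160.4 (median 121) in bud 6 and 5.03 to 39.2 (median 25.9) in bud 3.

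Heat shock, flavonoid and phosphate genes did not move as groups. Of 33 heat shock genes, 7 were higher, 10 lower and 16 not called. HEAT SHOCK PROTEIN 89.1 (Peaxi162Scf00026g00034.1), a chaperone of organelles, was higher by 1.98 ± 0.10 (SE), and heat shock transcription factor B4 (Peaxi162Scf00450g00422.1) was lower at 23.9 to 53.2 (median 34.6) in bud 6 and 965 to 1865 (median 1174) in bud 3. Of 14 flavonoid genes, 6 were higher and 3 lower. Chalcone synthase B (CHSB, Peaxi162Scf00164g00313.1), a copy of the entry enzyme, was listed at 0 in 4 bud 6 libraries and at no more than 1.02 in the others, against 111, 195 and 181 in low P and 729.8, 396 and 412 in high P in bud 3. Chalcone synthase A, another copy, averaged 2285 in bud 6 and 2850.4 in bud 3 and was not called, and a chalcone-flavanone isomerase (Peaxi162Scf00083g00320.1), the next enzyme, was higher at 5444 to 7734 (median 6124) in bud 6 and 629 to 932 (median 752) in bud 3.

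Of 19 genes of the phosphate starvation response, 6 were lower, none was higher and 13 were not called. The lower ones were 2 phosphate transporter 1 genes, PAP27 and 3 others, and PAP27 (Peaxi162Scf00046g00119.1), a secreted acid phosphatase, had 11.5 to 23.4 (median 15.8) in bud 6 and 821 to 2283 (median 1993) in bud 3. The transporter Peaxi162Scf00409g00422.1 had 727, 987 and 789.6 in low P and 525, 458 and 432 in high P in bud 6, against 7489, 6259 and 8086 in low P and 8163, 6726 and 4522 in high P in bud 3. Another phosphate transporter 1 gene (Peaxi162Scf00855g00210.1) had a difference of 0.53 that was not called, and of 1.78, called higher, under quantile normalization. The phosphate sensors of the SPX family, which rise in starved plants, were not called, with differences of -0.59 and -0.63 for the SPX1 genes, -0.81 for SPX2 (Peaxi162Scf00073g01422.1) and 0.22 for SPX3. SPX2 was called lower, with a difference of -1.03, when low P bud 3 replicate 3 was left out. TRN2 (Peaxi162Scf00177g01228.1), a tetraspanin of leaf patterning, likewise stayed under 2-fold at -0.92 and passed it without high P bud 3 replicate 3 (-1.02) or low P bud 6 replicate 2 (-1.04).

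Green and lignified tissue that a scalpel could bring along was checked by its markers. The 9 photosynthesis genes, all tested, summed to 99963 to 165275 in bud 6 and 116570 to 316037 in bud 3, with a median difference of -0.80, 1 gene lower and none at 0. Within treatments 4 were lower in low P, with a median of -0.95, and 2 in high P, with a median of -0.60, and 6 were lower over both treatments when no fold limit was set. The gene lower over both treatments, chlorophyll a-b binding protein 13 (Peaxi162Scf00242g00092.1), had 794 to 1717 (median 1159) in bud 6 and 2589 to 9349.7 (median 5310.1) in bud 3. Leaving out high P bud 3 replicate 1 called 3 of the list lower, and leaving out low P bud 3 replicate 3, high P bud 6 replicate 1, high P bud 6 replicate 3 or low P bud 6 replicate 1 called 2. Of 18 markers of lignifying tissue, 8 fell under the filter, 2 were higher and 2 lower, with a median of 0.24. With no filter 2 were higher and 6 lower, and the median turned to -0.51. The 18 markers summed to 4437 to 5669 in bud 6 and 2573 to 5163 in bud 3. The part of either tissue in the differences above was not tested.

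The differences held within each phosphate treatment. In low P, 6937 of 22227 genes were called (31.2%), 2856 higher and 4081 lower in bud 6, and in high P 7968 (35.8%), 3280 higher and 4688 lower. Of these, 6478 were called in the same direction in both, which is 93.4% of the low P calls and 81.3% of the high P calls. One gene was called in opposite directions, Peaxi162Scf00001g00263.1, which has no description and is named after its values were seen. It had 17.7, 27.3 and 6.86 in bud 6 and 4.38, 4.58 and 2.08 in bud 3 in low P, and 5.25, 4.68 and 4.19 in bud 6 and 43.5, 19.8 and 18.3 in bud 3 in high P.

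A test of the change in the bud difference with 24 h of low P called 0 genes with limma, and 758 of 22227 had an unadjusted p below 0.05. For Peaxi162Scf00001g00263.1 the change was 4.03 with an adjusted p of 1.00. The lowest p of all, 3.6e-05, belonged to glycerol-3-phosphatase 1 (Peaxi162Scf00469g00218.1), an enzyme that releases phosphate from glycerol phosphate, with 148, 131 and 157 in low P and 114, 116 and 113 in high P in bud 6, against 1037, 1289 and 1039 in low P and 304, 410.1 and 367 in high P in bud 3. Bud 3 was more than 2-fold higher in low P than in high P and bud 6 less so, yet the adjusted p was 0.80. Leaving out high P bud 6 replicate 2 called 1 gene without a description, Peaxi162Scf05942g00001.1, with a change of -6.41 and an adjusted p of 0.0123. List medians were smaller in size in low P than in high P for 20 of 27 lists, for example -1.85 in low P and -2.30 in high P for the dormancy homologs, and -1.51 in low P and -2.78 in high P for wall loosening, while the gene-by-gene test called none of their members.

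**Figure D3:**
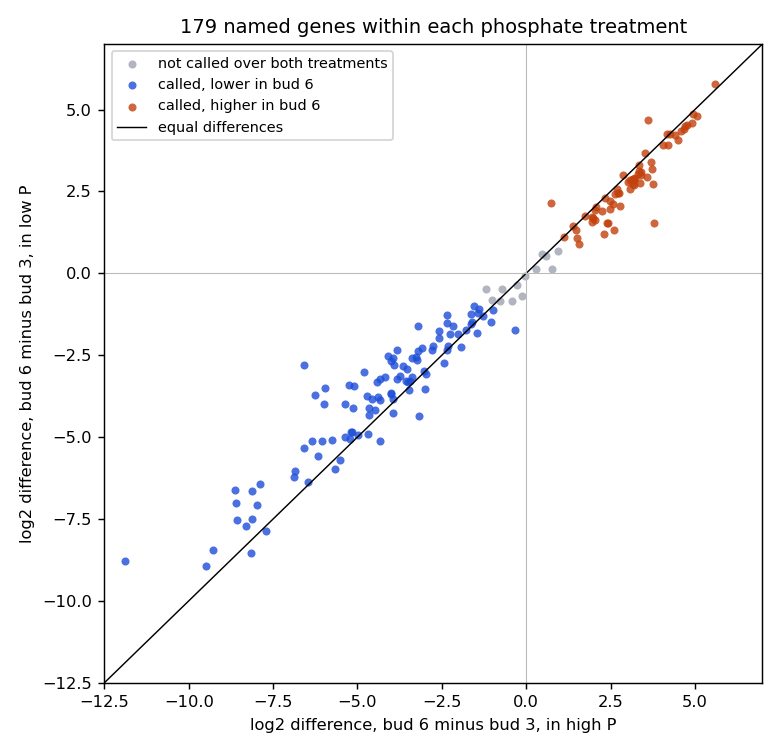
Log2 difference between bud 6 and bud 3 of the 179 named genes that were tested, in low P (y axis) and in high P (x axis), from separate libraries, with the diagonal marking equal differences. Many named genes were chosen for their difference over both treatments, which favours equal signs. Every named gene called in both treatments has the same sign in both, and points can lie well off the diagonal, as for ectonucleoside triphosphate diphosphohydrolase 5 at -8.77 in low P and -11.90 in high P, while TAR2 lies near it at 5.79 in low P and 5.58 in high P.

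In experiment 3, whose plants were raised in low P and were in part moved to high P, the same comparison over both media called far fewer genes. Of 22239 genes tested there, 134 were called (0.603%), 20 higher in bud 6 (0.0899%) and 114 lower (0.513%). The count was 539 with array weights, 466 when all 24 libraries of the experiment entered the fit and 51 with the replicate number as a block. It also moved with single libraries and was 45, 51, 50, 54, 59, 60, 65, 65 and 74 without high P bud 3 replicate 2, high P bud 6 replicate 1, low P bud 6 replicate 3, low P bud 6 replicate 2, high P bud 6 replicate 3, high P bud 6 replicate 2, high P bud 3 replicate 1, low P bud 6 replicate 1 and high P bud 3 replicate 3, in that order, and 203 without low P bud 3 replicate 3. The experiments were normalized and sequenced separately, so their values stand side by side and the difference between them was not tested. Among genes tested in both, 104 calls were shared in direction, which is 1.44% of 7245 calls in experiment 1 and 83.9% of 124 in experiment 3. Of these, 102 were lower. The 2 shared higher genes, Peaxi162Scf00152g00239.1 and Peaxi162Scf00350g00013.1, have no description and overlapped between buds in experiment 1, with 14.4 to 61.9 in bud 6 and 7.62 to 19.9 in bud 3 for the first, and 63.8 to 138.7 in bud 6 and 17.0 to 134.7 in bud 3 for the second.

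Of 178 named genes tested in experiment 3, 12 were lower in bud 6 and none was higher. Ectonucleoside triphosphate diphosphohydrolase 5 had 4.55 to 150.00 in bud 6 and 780.00 to 12291 in bud 3 there, a difference of -6.00 (limma adjusted p = 0.0024). Cytokinin dehydrogenase 1 had 2.27 to 61.1 in bud 6 and 105 to 575 in bud 3, a difference of -3.52. NAC domain containing protein 1 had 21.3 to 167 in bud 6 and 192 to 1171 in bud 3, a difference of -2.77. These 3 kept their direction without overlap between the buds. TAR2, by contrast, had 424 to 1576 in bud 6 and 26.8 to 1255 in bud 3, a difference of 0.47 that was not called. List medians were smaller in size in experiment 3 than in experiment 1 for 24 of 27 lists, and 21 lists had no member called. The histone median was 0.49 there and that of the dormancy homologs -0.36. Flavonoid genes were the exception in number, with 5 of 14 lower in bud 6 in experiment 3, among them chalcone synthase A, which averaged 4749.8 in bud 6 and 10352 in bud 3.

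**Figure D4:**
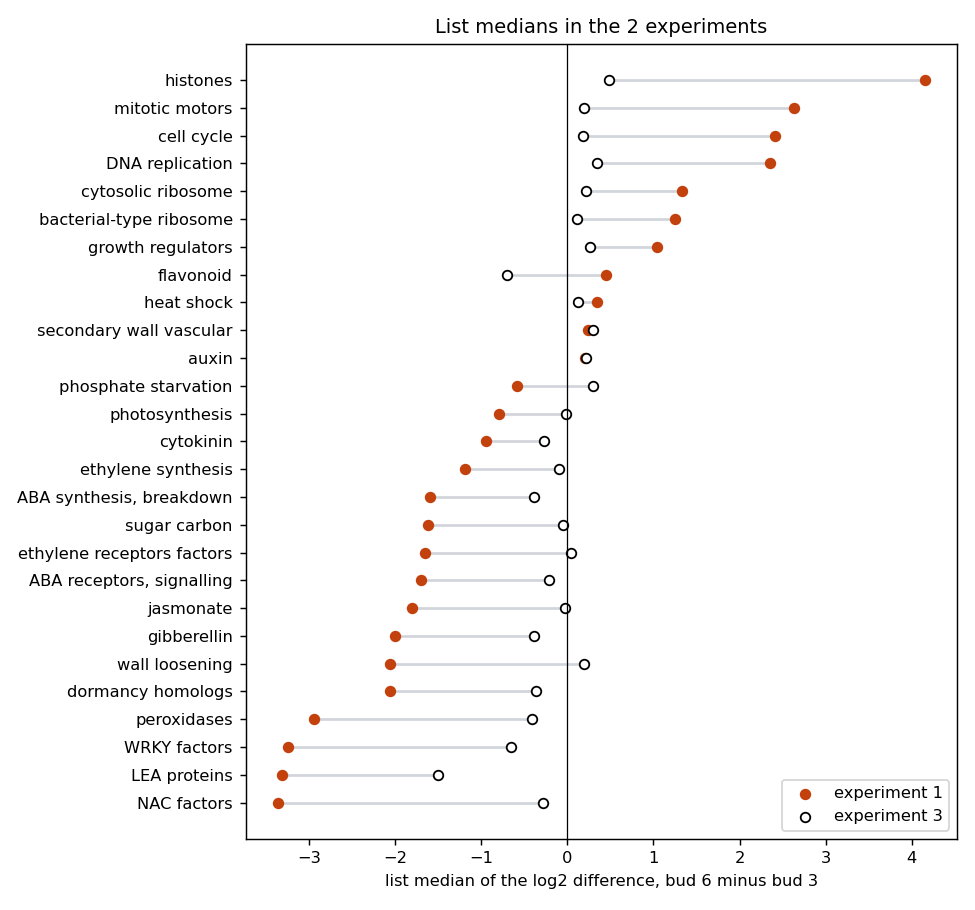
Median log2 difference between bud 6 and bud 3 (x axis) of each gene list (rows) in experiment 1 (filled) and experiment 3 (open), joined by a line. Open points lie near 0 for most lists, with -1.51 for LEA proteins the farthest from it.

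Buds 2 and 7 of experiment 1 are set beside the pair. They share the normalization with buds 6 and 3, and their levels are a description. Of 166 named genes called between bud 6 and bud 3, the bud 7 mean was nearer bud 6 for 163 and the bud 2 mean nearer bud 3 for 165 on the log2 scale. Many descriptions came from the study's tables of genes that differed between bud 2 and bud 6 in these libraries. Many named genes were then picked for a large difference between buds 6 and 3. The bud 2 count was therefore largely set by that choice, and the share over all genes was not computed. From bud 2 through buds 3 and 6 to bud 7, TAR2 averaged 2.89, 13.2, 628 and 564, and DRM1 8692, 8516, 629 and 918. Both changed most between buds 3 and 6. Others also changed within the basal pair. In the same order of nodes, CHSB averaged 2656, 337, 0.303 and 0.432, and PRX72 12869.9, 1979, 8.26 and 6.99. The lowest bud 2 library lay above the highest bud 3 library for both, at 851 to 4704 in bud 2 for CHSB. CKX5 did not follow the order of the nodes, with means of 909, 137, 289.6 and 167 in that order.

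**Figure D5:**
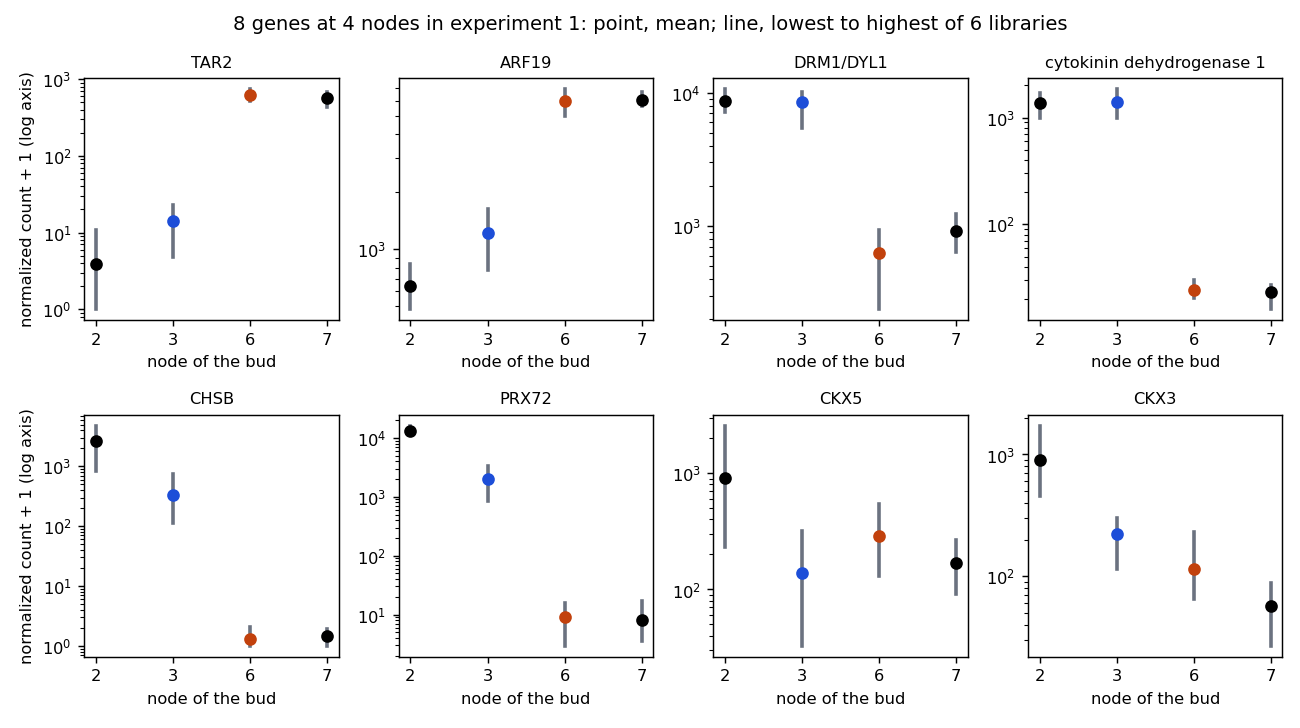
Normalized counts plus 1 (log axis) of 8 genes in buds 2, 3, 6 and 7 of experiment 1, as the mean (point) and the lowest to the highest of 6 libraries (line). TAR2 and ARF19 are high and DRM1/DYL1 and cytokinin dehydrogenase 1 low in buds 6 and 7, CHSB and PRX72 fall from bud 2 to bud 3 and again to bud 6, and CKX5 and CKX3 are highest in bud 2.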

How the data were processed

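RNA from axillary buds was sequenced as mRNA libraries. The authors ran the nf-core RNA-seq workflow (Trim Galore, FastQC and Salmon, with STAR named in the submitters' processing notes) against the Petunia axillaris Peaxi162 gene models, and the deposited signal is DESeq2-normalized counts for each experiment. Of the low values in each library, 22.0% to 55.7% lay within 0.05 of a whole number of reads, so reads were not recovered and no count model was run. No column of values was left unmapped (0). Gene names and descriptions came from tables in the study's supplement, which also hold the authors' own fold changes, not used here. No reference sequence was used, so no sequence is shown. DAD2 and TCP3 homologs, not paired with an identifier, are not reported here.

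Values were analysed as log2(value + 1) for genes with a mean of at least 10, with limma 3.58.1 (intensity trend, phosphate treatment as covariate, Benjamini-Hochberg adjustment over all genes tested) in R 4.3.3, after the code was tested on simulated data. A gene was called at an adjusted p below 0.05 and more than a 2-fold change. The treatments and their interaction used a model of group means. Same-numbered pools of buds 6 and 3 deviated together within treatments (r = 0.137 to 0.371). Differently numbered pools were not set beside them, and the labels do not state a pairing. Whether the numbers pair the samples is therefore not known, and the main fit did not use them. The plants behind the pools may be shared, and p-values measure the spread between pools. Named genes were the 10 largest described changes in each direction with a mean of at least 100 and no overlap, up to 5 largest called members of each list with a mean of at least 50, each list's most abundant member and largest exception, and genes the study's text names. Genes described as an unknown protein or with the word superfamily could not enter the 10 largest changes. Further list members are named to describe a list, and undescribed genes after their values were seen. Members and lists were chosen with earlier results of these data known. Alternatives covered the pseudocount (0.5 and 5), the filter (none and 50), upper quartile and quantile scaling, the replicate block, all 24 libraries of an experiment, array weights, other fold limits and leaving out each library. Figures used Python 3.11.15 and matplotlib 3.10.9.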

Additional observations from a re-analysis of the deposited data

Results flagged for a closer look

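One gene was called in opposite directions in the experiments. Peaxi162Scf01026g00025.1, which has no description, differed by -1.25 between bud 6 and bud 3 in experiment 1, with 38.9 to 91.1 normalized counts in bud 6 and 102 to 166 in bud 3. In experiment 3 it differed by 1.07, with 173 to 357 in bud 6 and 81.8 to 157 in bud 3. The buds did not overlap in either experiment. The difference between the experiments was not tested, because their tables were normalized separately.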

How the results depend on the processing

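The count of 7566 called genes was 17096 without a fold limit, 4925 when limma tested against 2-fold (treat) and 3038 beyond 4-fold, and 7387 to 7718 when each library was left out in turn. In high P these were 15312, 4373, 3310 and 7611 to 8272, and in low P 14338, 3308, 2763 and 6514 to 7070. The replicate block gave 7605 over both treatments, 7007 in low P and 8039 in high P. Removing both replicate 1 libraries of high P gave 7633, 7007 in low P and 8212 in high P. The interaction called 0 to 1 genes when each library was left out. The experiment 3 count of 134 was 539 with array weights, 466 with all 24 libraries, 86 beyond 4-fold, 78 at a mean of at least 50, 19 with treat and 45 to 203 when each library was left out. Same-numbered pools there correlated by -0.19 to 0.27, which does not settle whether the numbers pair the samples, and the block gave 51. The cause of these moves was not tested, apart from the fold limits themselves.

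Over 179 named genes, 4398 of 4463 alternative values kept their direction and their side of the limits, 53 lost the call, 12 gained it and none reversed. Beside the losses and gains given with each gene above, the others came from stricter or absent fold limits. The replicate block changed no call among the named genes and added 1 lower NAC gene, 1 lower jasmonate gene and 1 lower ethylene response gene to the lists. Of 675 list counts, 642 stayed within 1.5 times the main count. Under quantile normalization 146 cytosolic ribosomal genes were higher, and 32 dormancy homologs and 6 LEA genes were lower. At a mean of at least 50, where fewer genes were tested, 4 LEA genes and 5 jasmonate genes were lower. Single reads limit genes near the filter, where 1 read is close to 1 normalized count.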

Other observations

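Some families were split into members that were higher and members that were lower in bud 6. These families were chosen after their values were seen, from the same descriptions, and their counts are a description. Of 16 glucan endo-1,3-beta-glucosidases tested, which cut callose, 7 were higher and 7 lower. At one end Peaxi162Scf00032g00102.1 averaged 46.9 in bud 6 and 9449 in bud 3, and at the other Peaxi162Scf00305g00514.1 averaged 5650.3 in bud 6 and 753 in bud 3. In experiment 3, 5 of the 16 were lower in bud 6 and none was higher. Of 7 thaumatin-like proteins, 3 were higher and 4 lower. Peaxi162Scf00714g00017.1 averaged 44.3 in bud 6 and 9872 in bud 3, while Peaxi162Scf00406g00317.1 averaged 37755 in bud 6 and 10199 in bud 3. Proteinase inhibitors, which protect tissue from insects, had 2 higher, 2 lower and 1 not called of 5 tested. The higher ones are described as type 2 or II and the lower ones as type I. Proteinase inhibitor type-2 (Peaxi162Scf00391g00728.1) averaged 85621 ± 19778 in bud 6 and 11021 ± 1365 in bud 3, and inhibitor I-B (Peaxi162Scf00714g00217.1) 10882 ± 2542 in bud 6 and 71695 ± 13482 in bud 3 (SD, n = 6 each). Both inhibitors were abundant, and they differed in opposite directions, at 2.93 ± 0.16 (SE) and -2.73 ± 0.17 (SE). Of 5 tubulins, the subunits of microtubules, 3 were higher and 1 lower, with 3.41 ± 0.14 (SE) for a beta chain 2 gene (Peaxi162Scf01058g00167.1) and -1.61 ± 0.11 (SE) for the beta-1 chain (Peaxi162Scf00395g00513.1).

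In other families most called members had the same direction. Of 6 chitinases, defence enzymes that cut fungal walls, 5 were lower, and acidic endochitinase (Peaxi162Scf00403g00840.1) averaged 655 in bud 6 and 53292 in bud 3. Of 35 cytochrome P450 genes, enzymes of many specialised pathways, 29 were lower and 2 higher. One of the exceptions was abundant, Peaxi162Scf00262g00044.1, at 18790.1 in bud 6 and 4522 in bud 3. Of 14 subtilases, which are secreted proteases, 11 were lower and 1 was higher, and of 15 glutathione transferases 9 were lower and 1 was higher. Of 18 amino acid transporters 12 were lower and none higher, among them amino acid permease 6 (Peaxi162Scf00163g00178.1) at 877 in bud 6 and 9198 in bud 3. All 14 nucleolar genes, which process ribosomal RNA, were higher, and fibrillarin (Peaxi162Scf00057g00322.1) averaged 10903 in bud 6 and 3009 in bud 3. All 4 cytosine DNA methyltransferases, which copy methyl marks or set new ones, were higher. The most abundant of them (Peaxi162Scf00062g00201.1) averaged 31151 in bud 6 and 2199.8 in bud 3, a difference of 3.89 ± 0.22 (SE).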
